A study of Mus musculus with 6 samples.

Results

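The genes described here carry the first steps of T cell receptor signalling: the receptor chains and co-receptor, the kinases, the adaptors and exchange factors they act on, and the proteins that restrain them. The list held 39 genes, and all probe sets that the platform's annotation pairs with 1 of them were taken. For 38 of the genes there were 86 probe sets, out of 45101 on the array, and Lck, the Src-family kinase that acts first on the receptor, was not analysed here. Expression was measured on 6 arrays of regulatory T cells (Tregs), a CD4 lineage that keeps immune responses in check, taken from lymph nodes and spleen of C57Bl/6 mice aged 8 to 11 weeks and sorted for CD4, CD25 and FoxP3. All mice carried FoxP3GFP, a reporter that makes cells expressing FoxP3 fluoresce green. There were 3 groups of 2 arrays: A2AR+/+ cells given 10 nM ATL1222, an agonist of the adenosine receptor A2AR (WT ATL1222), A2AR-/- cells given DMSO (KO vehicle), and A2AR+/+ cells given DMSO (WT vehicle), each for 18 h in culture. The labels mention no stimulation of the T cell receptor during culture. They call the replicates biological without naming separate animals, and the p-values here cover the spread between arrays, which may be technical.

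When a T cell receptor binds its ligand, Src-family kinases phosphorylate the CD3 and zeta chains, Zap70 docks there and phosphorylates the adaptors Lat and Lcp2, and these assemble a complex that drives calcium, Ras, protein kinase C and actin signals. Csk, held at the membrane by Pag1, keeps the Src-family kinases inactive, and phosphatases, ubiquitin ligases and diacylglycerol kinases limit the signal. A2AR raises cAMP, and protein kinase A is known to activate Csk in T cells. These steps work through protein modification, which the arrays do not measure. The values below are transcript signals.

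The deposited values are probe set signals on a linear scale, scaled by the authors to a common trimmed mean. Signals of different probe sets are not comparable with each other, so each gene is compared between groups only. Where a gene had several probe sets, the one with the largest average signal stands for it. All 38 genes lay above the limit for dim genes, a signal of about 71.2. Array medians ran from 74.7 to 98.2, and Gapdh probe sets at the 3' end read 1.21 to 1.45 times those at the 5' end. For Actb this ratio was higher, from 1.93 on WT ATL1222 replicate 1 to 2.53 on WT ATL1222 replicate 2. Poly-A control RNAs added before labelling read higher on replicate 1 than on replicate 2 in every group, for example 7936 and 5370.2 for Lys in WT ATL1222. Of 8 measured Treg markers 7 lay above the limit on average, Foxp3 being the exception at up to 53.5. Above it too were 2 of 4 B cell markers and 3 of 6 CD8 T and NK cell markers. So were 1 of 5 myeloid, 1 of 4 dendritic cell, 1 of 3 platelet and 0 of 3 erythroid markers. Sums over markers serve only to compare arrays within a list, not lists with each other, and bright probe sets weigh most in them. Summed signals of Treg markers ran from 22814 to 31416 over the arrays, and those of 4 B cell markers from 419.8 to 623. Sums ran from 189 to 393 for 5 myeloid markers, 161 to 316 for 4 dendritic cell markers, 467 to 703 for 6 CD8 T and NK cell markers, 87.2 to 135 for 3 erythroid markers and 219.9 to 359 for 3 platelet markers. The sums of Treg markers were 31416 and 26740.4 in WT ATL1222, 25207 and 22814 in KO vehicle and 28226 and 23425 in WT vehicle, so the WT ATL1222 and KO vehicle arrays did not overlap. Single Treg markers went both ways. Tnfrsf18, also among the receptor-induced genes below, read 7823 and 6331 in WT ATL1222, against 3623 and 2921 in KO vehicle, and Ctla4 6409.9 and 5699 against 3432 and 3759. Nrp1 was lower, at 6109 and 5319 in WT ATL1222, against 8299 and 6821 in KO vehicle. The part of these markers in the differences below was not tested. In sorted cells, fewer cells of a kind and less RNA per cell cannot be told apart.

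**Figure D1:**
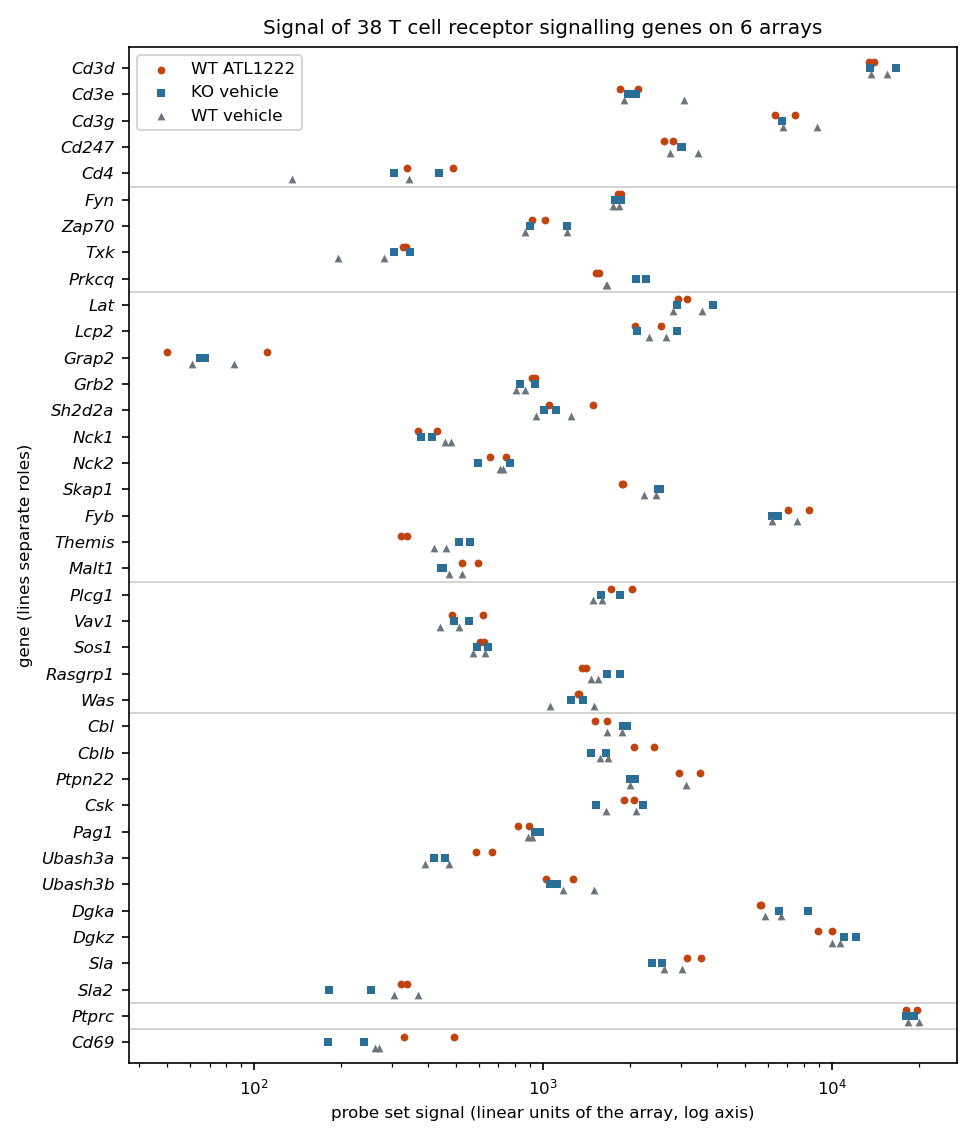
Signals of the 38 genes on each of the 6 arrays, with the signal on a log axis and the genes down the page in order of role. Ptprc lies between 18076 and 20099 on all arrays, whereas the KO vehicle points of Prkcq lie to the right of the other groups.

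Most transcripts of the receptor pathway differed little between the groups. The median size of a member's log2 fold change, whatever its sign, was 0.15 in WT ATL1222 against KO vehicle, 0.16 in WT ATL1222 against WT vehicle and 0.12 in KO vehicle against WT vehicle, beside 0.18, 0.16 and 0.15 for all genes. The comparison of agonist-treated with receptor-deficient cells, which differ in both genotype and treatment, held the members with the smallest p. None of the 38 passed at adjusted p under 0.05 over all genes in limma's fit of all 6 arrays, where 0.999% of the 10916 genes tested passed. At an unadjusted p under 0.05, 12 members lay in this comparison, 6 higher and 6 lower with ATL1222, where 8.48% of all genes did. With the replicate number as a block, 4 members passed, against 2.42% of all genes. Ptpn22, Cblb and Sla were higher in WT ATL1222 than in KO vehicle, where 1.88% of all genes were called higher, and Prkcq was lower, where 0.54% were called lower. The members' median SE of a log2 fold change was 0.17, and that of all genes tested was 0.23.

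Between WT ATL1222 and WT vehicle, 0 members passed (limma, smallest adjusted p = 0.636), where 0.211% of all genes did. There were 5 at an unadjusted p under 0.05, where 5.03% of all genes were, and with the replicate block 0 passed, against 0.724% of all genes. Between KO vehicle and WT vehicle, 0 members passed (limma, smallest adjusted p = 1.00), where 0.0275% of all genes did. Only Prkcq and Sla2 had an unadjusted p under 0.05 there, where 3.89% of all genes did, and with the block 0 passed, against 0.0824% of all genes. The comparisons share arrays and are not independent of each other.

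Directions were mixed in each comparison. Of the 38 members, 23 had positive and 15 negative log2 fold changes in WT ATL1222 against KO vehicle, with a median of 0.02, beside -0.02 for all genes. The split was 18 positive and 20 negative in WT ATL1222 against WT vehicle (median -0.02, beside -0.01 for all genes) and 20 positive and 18 negative in KO vehicle against WT vehicle (median 0.02, beside 0.00 for all genes). Groups did not overlap for 17 members in WT ATL1222 against KO vehicle, where 38.2% of all genes did not. They did not overlap for 13 in WT ATL1222 against WT vehicle, beside 30.8% of all genes, and for 15 in KO vehicle against WT vehicle, beside 29.6%. The smallest two-sided p of an exact test between 2 and 2 arrays is 0.33, and single members were therefore tested in fits across all genes.

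**Figure D2:**
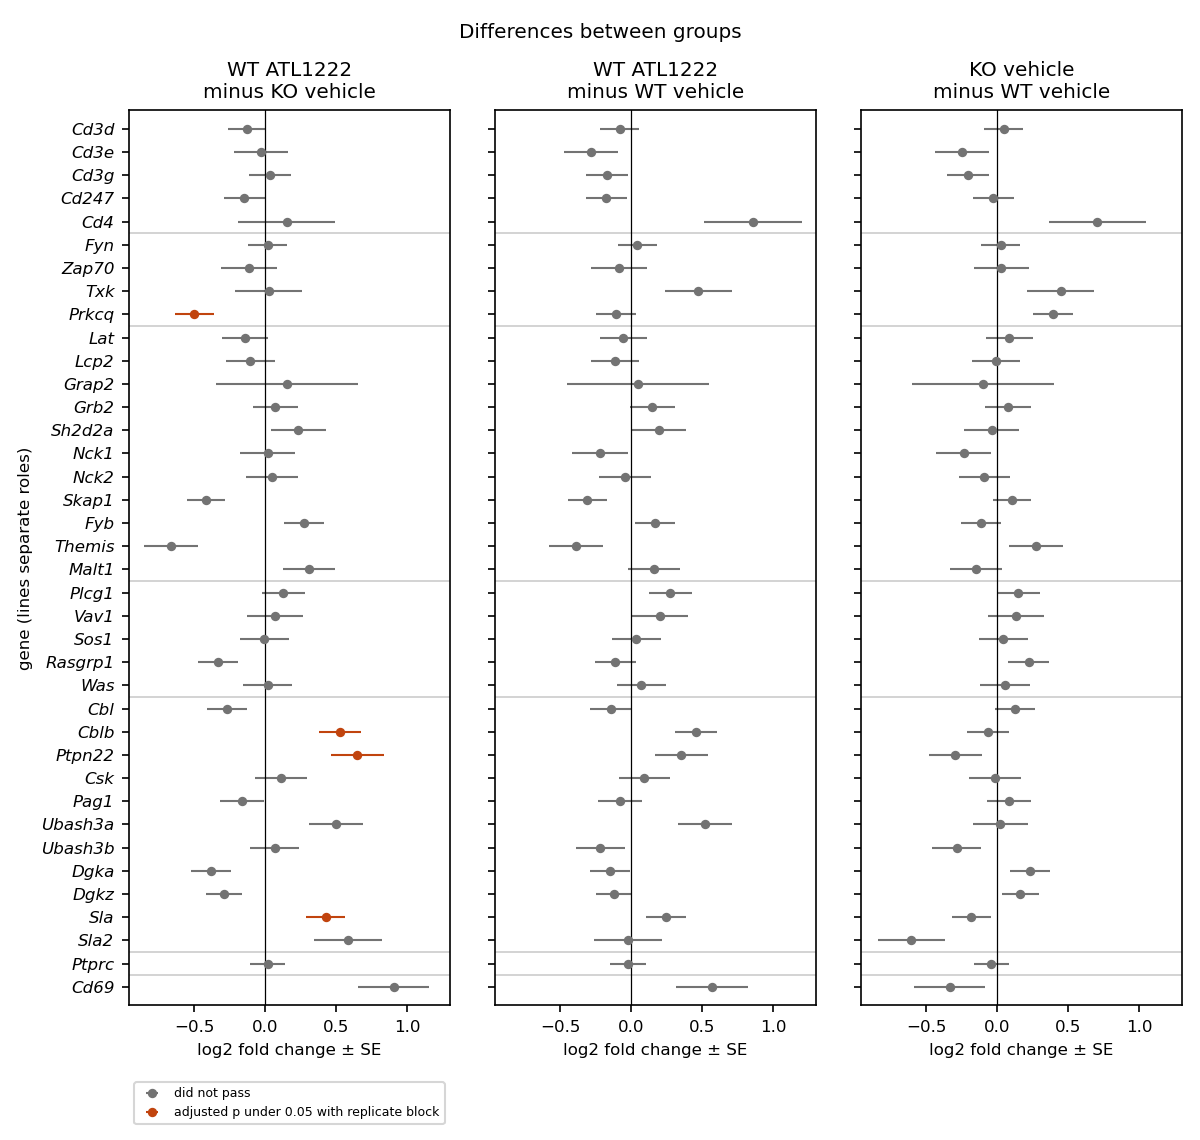
Log2 fold changes of the 38 genes with their SE from the fit without a block, for the 3 comparisons, with genes in order of role. Points in orange passed at adjusted p under 0.05 with the replicate block: Ptpn22, Cblb and Sla to the right of 0 and Prkcq to the left, all in the first panel.

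Among the receptor chains and the co-receptor, 0 of 5 passed in any of the 3 comparisons, with or without the block. Cd3d, one of the CD3 chains that carry the signal into the cell, had signals of 13499 and 14046 in WT ATL1222, 16667 and 13596 in KO vehicle and 15470.1 and 13711 in WT vehicle. Cd3g, another of them, had 7486 and 6359.9 in WT ATL1222, 6740.4 and 6722 in KO vehicle and 8882 and 6796 in WT vehicle. Cd3e, the chain that pairs with both, had 2139.6 and 1848 in WT ATL1222, 2104 and 1968 in KO vehicle and 3068 and 1907 in WT vehicle. For Cd3e and Cd3g the first WT vehicle array was the highest of the 6, and the remaining arrays lay close together. Log2 fold changes of Cd3e were -0.28 ± 0.19 SE in WT ATL1222 against WT vehicle (limma adjusted p = 0.998) and -0.25 ± 0.19 in KO vehicle against WT vehicle (limma adjusted p = 1.00). Cd247, the zeta chain with several docking motifs for Zap70, had 2822 and 2624 in WT ATL1222, 3001 and 3027 in KO vehicle and 3436 and 2745 in WT vehicle. Its groups of WT ATL1222 and KO vehicle did not overlap, at a log2 fold change of -0.15 ± 0.14 (limma adjusted p = 0.888).

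Cd4, the co-receptor that brings a Src-family kinase to the receptor and that was used in the sort, had signals of 488 and 339 in WT ATL1222, 305 and 435 in KO vehicle and 343 and 136 in WT vehicle. The second WT vehicle array stood below the other 5. Its log2 fold change was 0.86 ± 0.34 in WT ATL1222 against WT vehicle (limma adjusted p = 0.841) and 0.71 ± 0.34 in KO vehicle against WT vehicle (limma adjusted p = 1.00). In KO vehicle against WT vehicle its log2 differences were -0.16 within replicate 1 and 1.57 within replicate 2, opposite in sign. A second probe set of Cd4 lay below the limit, at 10.5 to 143, and the average of both gave 0.01 in KO vehicle against WT vehicle and 0.51 in WT ATL1222 against WT vehicle.

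Of the kinases, Fyn, Zap70, Txk and Prkcq were measured, and 0 of 4 passed without the block in any comparison. Fyn, a Src-family kinase, was nearly level at 1864 and 1813 in WT ATL1222, 1769 and 1869 in KO vehicle and 1832 and 1741 in WT vehicle. Zap70, which binds the phosphorylated chains, had 914 and 1017 in WT ATL1222, 903 and 1212 in KO vehicle and 1211 and 866 in WT vehicle. The 3 groups of both genes overlapped. Log2 fold changes of Fyn lay between 0.02 and 0.04 in the 3 comparisons, each with an SE of 0.14. Those of Zap70 lay between -0.12 and 0.03, each with an SE of 0.20. Another probe set of Zap70 had -0.75 ± 0.30 in WT ATL1222 against WT vehicle and -0.64 ± 0.30 in WT ATL1222 against KO vehicle. The remaining probe set had -0.01 ± 0.22 and 0.03 ± 0.22 in the same order. With all 3 averaged Zap70 had -0.28 ± 0.16 and -0.24 ± 0.16, without a pass. Txk, a kinase of the Tec family, had 327 and 336 in WT ATL1222, 305 and 347 in KO vehicle and 195 and 280.3 in WT vehicle. Both WT vehicle arrays lay below the other 4, and the log2 fold changes were 0.47 ± 0.24 in WT ATL1222 against WT vehicle (limma adjusted p = 0.998) and 0.45 ± 0.24 in KO vehicle against WT vehicle (limma adjusted p = 1.00).

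Prkcq, the protein kinase C isoform theta that gathers at the contact with the antigen-presenting cell and feeds NF-kB, had signals of 1520.5 and 1563 in WT ATL1222, 2104 and 2276 in KO vehicle and 1658 and 1664 in WT vehicle. Both KO vehicle arrays lay above the other 4, and the WT ATL1222 arrays lay just below those of WT vehicle. Prkcq was 1.42-fold lower in WT ATL1222 than in KO vehicle (a log2 fold change of -0.50 ± 0.14 SE, limma adjusted p = 0.145 without the block and limma adjusted p = 0.0221 with it). The log2 differences were -0.46 within replicate 1 and -0.54 within replicate 2. In KO vehicle against WT vehicle it had the smallest p of the members, at 0.39 ± 0.14 (limma adjusted p = 1.00, or limma adjusted p = 0.339 with the block), and in WT ATL1222 against WT vehicle it had -0.11 ± 0.14 (limma adjusted p = 0.998).

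The adaptors and scaffolds numbered 11, of which 0 passed in any comparison with or without the block. Lat, the membrane adaptor on which the signalling complex forms, had signals of 2945 and 3147 in WT ATL1222, 3881 and 2911 in KO vehicle and 3560.3 and 2811 in WT vehicle. Lcp2, the cytosolic adaptor that joins it, had 2555 and 2082 in WT ATL1222, 2909 and 2119.9 in KO vehicle and 2675 and 2329.8 in WT vehicle. Groups overlapped for both, and their log2 fold changes lay between -0.14 (Lat) and 0.09 (Lat) over the 3 comparisons, with SEs of 0.16 and 0.17. Grap2, which links Lat to Lcp2, ran from 49.7 to 110.9 near the limit, and its SE of 0.50 was the widest among the members.

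Skap1, which with Fyb couples the receptor to integrin adhesion, had signals of 1882 and 1892 in WT ATL1222, 2502 and 2544 in KO vehicle and 2452 and 2233 in WT vehicle. Both WT ATL1222 arrays lay below the other 4. Its log2 fold change was -0.42 ± 0.13 in WT ATL1222 against KO vehicle (limma adjusted p = 0.267, or limma adjusted p = 0.0536 with the block) and -0.31 ± 0.13 in WT ATL1222 against WT vehicle (limma adjusted p = 0.933). In KO vehicle against WT vehicle it had 0.11 ± 0.13, or 0.42 averaged over its probe sets, without a pass. Its partner Fyb had 8367 and 7067 in WT ATL1222, 6494 and 6213 in KO vehicle and 7562 and 6221 in WT vehicle, so that WT ATL1222 lay above KO vehicle without overlap. The log2 fold change of Fyb was 0.28 ± 0.14 (limma adjusted p = 0.657).

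Themis, an adaptor known for its part in thymocyte selection, had signals of 339 and 323 in WT ATL1222, 512 and 557 in KO vehicle and 418 and 459.6 in WT vehicle. The 3 groups did not overlap, with WT vehicle between the others. In WT ATL1222 against KO vehicle its log2 fold change was -0.67 ± 0.19 (limma adjusted p = 0.172, or limma adjusted p = 0.0651 with the block), the most negative of the members there, and it did not pass. Against WT vehicle it was -0.39 ± 0.19 in WT ATL1222 (limma adjusted p = 0.998) and 0.28 ± 0.19 in KO vehicle (limma adjusted p = 1.00). With the 4 probe sets of Themis averaged, 2 of which lay below the limit, these values were 0.05 ± 0.27 and 0.58 ± 0.27, and the first had the other sign. The other adaptors, Grb2, Sh2d2a, Nck1, Nck2 and Malt1, had log2 fold changes from -0.24 (Nck1, KO vehicle against WT vehicle) to 0.31 (Malt1, WT ATL1222 against KO vehicle). Malt1 is the protease of the complex that leads to NF-kB, and Nck1 and Nck2 lead to actin.

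Effectors and exchange factors showed 0 of 5 passing in any comparison, with or without the block. Plcg1, the phospholipase that makes diacylglycerol and the calcium-releasing inositol phosphate, had signals of 1725 and 2028 in WT ATL1222, 1589 and 1849.9 in KO vehicle and 1606 and 1486 in WT vehicle. Its WT ATL1222 arrays lay above those of WT vehicle, at a log2 fold change of 0.27 ± 0.15 (limma adjusted p = 0.998). Rasgrp1, the Ras exchange factor that diacylglycerol recruits, had 1414 and 1368 in WT ATL1222, 1851 and 1667 in KO vehicle and 1462 and 1547 in WT vehicle. Its KO vehicle arrays were the highest and its WT ATL1222 arrays the lowest. The log2 fold change of Rasgrp1 was -0.33 ± 0.14 in WT ATL1222 against KO vehicle (limma adjusted p = 0.523), -0.11 ± 0.14 in WT ATL1222 against WT vehicle and 0.22 ± 0.14 in KO vehicle against WT vehicle. Vav1 and Sos1, both exchange factors, and Was, an actin regulator, had log2 fold changes between -0.01 and 0.20.

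The negative regulators, 11 of the 38 members, held 3 of the 4 that passed with the block, where 2.42% of all genes did. Their directions were mixed in WT ATL1222 against KO vehicle, with 7 positive and 4 negative log2 fold changes and a median of 0.11. None of the 11 passed without the block (limma, smallest adjusted p = 0.158 in WT ATL1222 against KO vehicle). Ptpn22, a phosphatase that removes activating phosphates from Src-family kinases and Zap70, had signals of 3483 and 2948 in WT ATL1222, 2084 and 1993 in KO vehicle and 3137 and 1997 in WT vehicle. Both WT ATL1222 arrays exceeded both KO vehicle arrays, and the WT vehicle arrays were far apart, 1 near each of the other groups. Ptpn22 was 1.57-fold higher in WT ATL1222 than in KO vehicle (a log2 fold change of 0.65 ± 0.19 SE, limma adjusted p = 0.169 without the block and limma adjusted p = 0.0152 with it). The log2 differences were 0.74 within replicate 1 and 0.56 within replicate 2. It also passed with the 4 arrays of these groups alone (limma adjusted p = 0.0335). The share of all genes passing in that fit is not given here. Over all alternatives, 5 to 264 genes passed in this comparison. With either array of WT vehicle left out, the group outside this comparison, the log2 fold change of Ptpn22 stayed at 0.65. Those fits take its spread from the same 4 arrays as the fit above, so they are not separate results. All of them leave the distance between its WT vehicle arrays out of the spread. Leaving out an array of the groups compared gave no pass in any of the 4 cases, with the lowest limma adjusted p of 0.230 without WT ATL1222 replicate 2 and the highest of 0.80 without WT ATL1222 replicate 1. Nor did it pass with quantile normalization (limma adjusted p = 0.111) or without the variance trend (limma adjusted p = 0.582). Against WT vehicle its log2 fold change was 0.35 ± 0.19 in WT ATL1222 (limma adjusted p = 0.998) and -0.29 ± 0.19 in KO vehicle (limma adjusted p = 1.00).

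Cblb, a ubiquitin ligase that raises the threshold for T cell activation, had signals of 2426 and 2066 in WT ATL1222, 1646 and 1464 in KO vehicle and 1675 and 1576 in WT vehicle. Both WT ATL1222 arrays lay above the other 4, and the KO vehicle and WT vehicle arrays overlapped. It was 1.44-fold higher in WT ATL1222 than in KO vehicle (a log2 fold change of 0.52 ± 0.15, limma adjusted p = 0.158 without the block and limma adjusted p = 0.0181 with it), with 0.56 within replicate 1 and 0.49 within replicate 2. Cblb also had the smallest p of the members in WT ATL1222 against WT vehicle and did not pass, at 0.46 ± 0.15 (limma adjusted p = 0.636, or limma adjusted p = 0.0874 with the block). Its relative Cbl had 1518 and 1671 in WT ATL1222, 1894 and 1956 in KO vehicle and 1659 and 1870.4 in WT vehicle, and a log2 fold change of -0.27 ± 0.14 in WT ATL1222 against KO vehicle (limma adjusted p = 0.677). The other probe sets of Cbl had -0.09 ± 0.19, with overlapping groups, and -0.57 ± 0.46 there. Cblb and Cbl thus had opposite signs in that comparison, and the difference between them was not tested.

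Sla, an adaptor that with Cbl lowers the amount of receptor chains, had signals of 3523 and 3156 in WT ATL1222, 2578 and 2384 in KO vehicle and 3017 and 2620.4 in WT vehicle. The log2 fold changes of its 4 probe sets ran from -0.18 ± 0.14 to 0.43 ± 0.25 in KO vehicle against WT vehicle. Their average there was 0.02 ± 0.15. On the probe set that stands for Sla, the WT ATL1222 arrays were highest and the KO vehicle arrays lowest, without overlap between the 3 groups. It was 1.34-fold higher in WT ATL1222 than in KO vehicle (a log2 fold change of 0.43 ± 0.14, limma adjusted p = 0.272 without the block and limma adjusted p = 0.0360 with it), with 0.45 within replicate 1 and 0.40 within replicate 2. Tested as 1 of 18760 probe sets with the block it did not pass (limma adjusted p = 0.0649), whereas the probe sets of Ptpn22 (limma adjusted p = 0.0328), Cblb (limma adjusted p = 0.0357) and Prkcq (limma adjusted p = 0.0426) did. In that fit 1.41% of all probe sets passed. Sla2, a close relative of Sla, had 338 and 321 in WT ATL1222, 182 and 253 in KO vehicle and 368 and 304 in WT vehicle. Both KO vehicle arrays lay below the other 4, and its log2 fold change was -0.60 ± 0.24 in KO vehicle against WT vehicle (limma adjusted p = 1.00) and 0.58 ± 0.24 in WT ATL1222 against KO vehicle (limma adjusted p = 0.462).

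**Figure D3:**
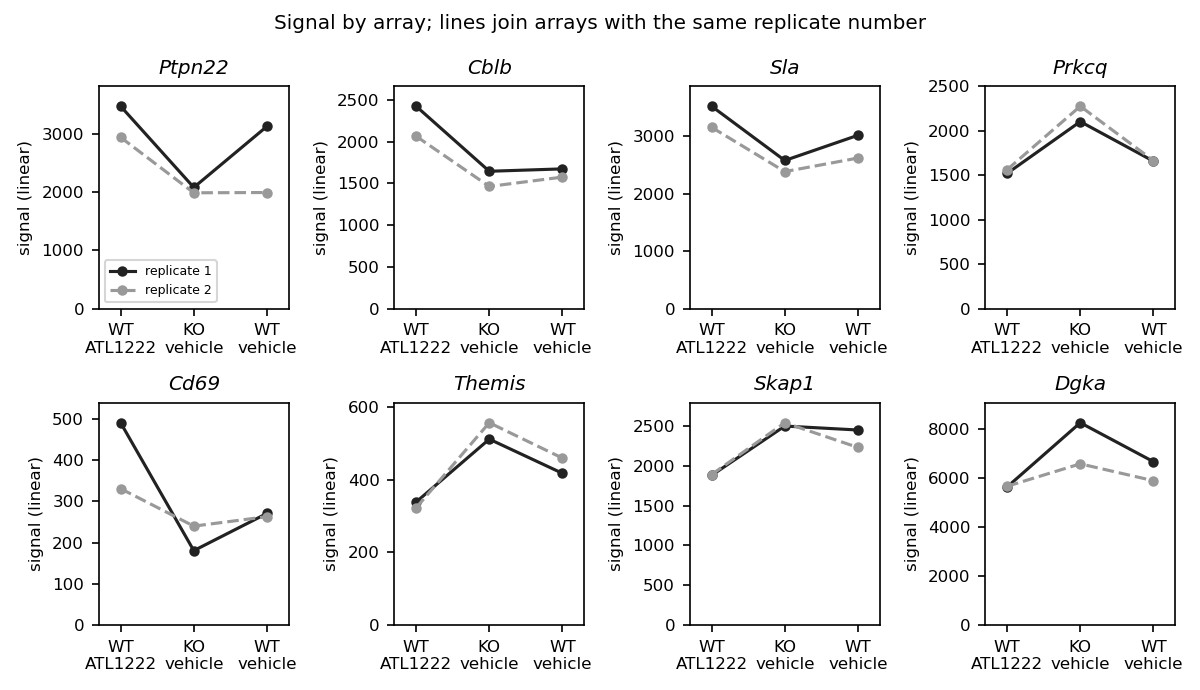
Signals of 8 members on each array, on linear axes that start at 0, with lines joining arrays of the same replicate number. For Ptpn22, Cblb and Sla both lines stand higher at WT ATL1222 than at KO vehicle, and for Prkcq, Themis, Skap1 and Dgka both stand lower.

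Promoter windows are shown for the members that passed with the block in WT ATL1222 against KO vehicle, none of which passed without it. They are given only to display the sequence in front of these genes. The windows, from RefSeq on build GRCm38.p6, run from 250 bases before to 50 bases after a gene's start, 5′ to 3′ on the plus strand, which is the strand of all 3 genes. Sla was not matched in the table. Capitals mark every match, on either strand, to the full cAMP response element TGACGTCA, its half-site TGACG (which the full element contains), the GC box GGGCGG and the CCAAT box. The windows are those of Ptpn22 at chr3:103859545-103859844 and, for its second start, chr3:103860027-103860326, of Cblb at chr16:52031299-52031598 and of Prkcq at chr2:11172132-11172431.
Ptpn22, first window: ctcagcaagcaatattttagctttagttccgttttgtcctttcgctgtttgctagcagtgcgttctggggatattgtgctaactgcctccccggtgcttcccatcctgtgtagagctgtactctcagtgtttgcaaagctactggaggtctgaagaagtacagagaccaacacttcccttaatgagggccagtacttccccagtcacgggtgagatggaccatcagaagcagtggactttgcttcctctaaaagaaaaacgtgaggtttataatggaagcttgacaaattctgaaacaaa
Ptpn22, second window: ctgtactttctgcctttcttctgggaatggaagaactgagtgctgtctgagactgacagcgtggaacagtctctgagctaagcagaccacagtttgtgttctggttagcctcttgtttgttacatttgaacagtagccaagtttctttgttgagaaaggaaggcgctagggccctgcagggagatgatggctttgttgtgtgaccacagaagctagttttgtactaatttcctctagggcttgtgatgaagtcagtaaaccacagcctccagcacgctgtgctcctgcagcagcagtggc
Cblb: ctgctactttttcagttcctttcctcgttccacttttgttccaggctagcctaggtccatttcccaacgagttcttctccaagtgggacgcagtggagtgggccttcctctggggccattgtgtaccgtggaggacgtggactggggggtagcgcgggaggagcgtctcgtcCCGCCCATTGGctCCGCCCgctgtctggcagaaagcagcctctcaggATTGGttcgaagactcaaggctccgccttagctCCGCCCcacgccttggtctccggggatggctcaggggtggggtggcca
Prkcq: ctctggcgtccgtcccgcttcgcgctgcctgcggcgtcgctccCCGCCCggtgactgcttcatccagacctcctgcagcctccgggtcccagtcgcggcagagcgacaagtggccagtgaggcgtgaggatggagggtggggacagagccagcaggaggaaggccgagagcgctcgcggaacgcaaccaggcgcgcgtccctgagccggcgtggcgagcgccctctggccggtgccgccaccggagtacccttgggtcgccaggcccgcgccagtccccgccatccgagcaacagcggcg

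Neither window of Ptpn22 held any of the 4 motifs. The Cblb window held 3 GC boxes and 2 CCAAT boxes, with 1 GC box directly beside a CCAAT box, and the Prkcq window held 1 GC box. Neither window of Ptpn22, nor those of Cblb and Prkcq, contained TGACG. The base composition differed too, at 46.0% and 48.7% G and C in the Ptpn22 windows, 61.3% for Cblb and 73.0% for Prkcq. Of 47 windows of 32 members in the table, 8 held the half-site (17.0%), beside 20.8% of all 32851 windows, and 1 held the full element, that of Zap70 (2.13%, beside 1.79% of all). The GC box was in 38.3% of the members' windows and 35.7% of all, and the CCAAT box in 27.7% and 37.4%. A match is a run of letters, not a known site, and its absence here says only that these letters are not in these windows.

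The remaining negative regulators did not pass with or without the block. Csk, the kinase that switches off Src-family kinases and the one through which cAMP is known to act, had signals of 2069.7 and 1907 in WT ATL1222, 2216 and 1529.7 in KO vehicle and 2100.0 and 1649.7 in WT vehicle. Replicate 1 was higher than replicate 2 in every group, and the groups overlapped. Its log2 fold change was 0.11 ± 0.18 in WT ATL1222 against KO vehicle (limma adjusted p = 0.949), 0.09 ± 0.18 in WT ATL1222 against WT vehicle (limma adjusted p = 0.998) and -0.02 ± 0.18 in KO vehicle against WT vehicle (limma adjusted p = 1.00). Pag1, the membrane anchor of Csk, had 817 and 892 in WT ATL1222, 978 and 936 in KO vehicle and 915 and 889 in WT vehicle. Log2 fold changes of Pag1 were -0.16 ± 0.16, -0.08 ± 0.16 and 0.08 ± 0.16 in the same order of comparisons, with limma adjusted p from 0.887 to 1.00. Of the 4 probe sets of Pag1 only 1 lay above the limit. Averaged over all of them Pag1 had -0.57 ± 0.29 and -0.45 ± 0.29 in the comparisons with WT ATL1222, and neither passed.

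Ubash3a, a phosphatase-like suppressor of receptor signalling, had signals of 587 and 664 in WT ATL1222, 458 and 418 in KO vehicle and 473 and 391 in WT vehicle. Both WT ATL1222 arrays lay above the other 4. Its log2 fold change was 0.52 ± 0.19 in WT ATL1222 against WT vehicle (limma adjusted p = 0.735) and 0.50 ± 0.19 in WT ATL1222 against KO vehicle (limma adjusted p = 0.413). Ubash3b, its relative, had 1272 and 1021 in WT ATL1222, 1117 and 1058 in KO vehicle and 1497 and 1176 in WT vehicle. For Ubash3b the groups of KO vehicle and WT vehicle did not overlap, at -0.28 ± 0.17 (limma adjusted p = 1.00), and WT ATL1222 overlapped both. Another probe set of Ubash3b had 0.14 ± 0.16 in this comparison, and the average of its 3 probe sets had -0.07 ± 0.16.

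The diacylglycerol kinases Dgka and Dgkz remove the lipid that recruits Rasgrp1 and Prkcq. Dgka had signals of 5637 and 5665 in WT ATL1222, 8259 and 6580.4 in KO vehicle and 6668 and 5891 in WT vehicle. Dgkz had 8949 and 10042 in WT ATL1222, 12134 and 11048 in KO vehicle and 10014 and 10645 in WT vehicle. On the probe sets that stand for them, the WT ATL1222 arrays of both genes lay below the KO vehicle arrays without overlap. The log2 fold change in that comparison was -0.38 ± 0.14 for Dgka (limma adjusted p = 0.382, or limma adjusted p = 0.0717 with the block). For Dgkz it was -0.29 ± 0.13 (limma adjusted p = 0.546, or limma adjusted p = 0.192 with the block). Another probe set of Dgkz overlapped there, at 1547 and 1391 in WT ATL1222 and 1728 and 1468 in KO vehicle (-0.12 ± 0.19). Ptprc, the CD45 phosphatase that both primes and restrains Src-family kinases, was level, at 19663 and 18076 in WT ATL1222, 19195 and 18112 in KO vehicle and 20099 and 18291 in WT vehicle, with log2 fold changes between -0.04 and 0.02 and an SE of 0.13.

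Cd69, a surface protein that rises early after receptor engagement and holds T cells in lymphoid tissue, had signals of 491 and 331 in WT ATL1222, 180.4 and 239.9 in KO vehicle and 271 and 263 in WT vehicle. The WT ATL1222 arrays were highest and the KO vehicle arrays lowest, and the 3 groups did not overlap. Its log2 fold change of 0.90 ± 0.25 in WT ATL1222 against KO vehicle was the most positive of the members, but it did not pass (limma adjusted p = 0.152, or limma adjusted p = 0.0789 with the block). The log2 differences were 1.37 within replicate 1 and 0.44 within replicate 2. Against WT vehicle the values were 0.57 ± 0.25 in WT ATL1222 (limma adjusted p = 0.940) and -0.33 ± 0.25 in KO vehicle (limma adjusted p = 1.00).

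Other genes known to rise after receptor engagement were given as a list of 25, of which 17 lay above the limit. This list, like that of further pathway genes below, was chosen with earlier results of these data known. Its counts beside those of all genes are therefore not an independent test. In limma's fit 4 rose in WT ATL1222 against KO vehicle, Tnfrsf9, Tnfrsf18, Tnfrsf4 and Nr4a3, and 0 fell, where 0.999% of all genes passed, or 2.42% with the block. The median log2 fold change of the list was 0.17 there, beside -0.02 for all genes, with 11 of 17 positive. Tnfrsf9, a co-stimulatory receptor, had signals of 978 and 1629.9 in WT ATL1222, 339.7 and 380.1 in KO vehicle and 551 and 435 in WT vehicle (log2 1.77 ± 0.23, limma adjusted p = 0.000904). Nr4a3, an early nuclear receptor, had 825 and 602 in WT ATL1222, 356 and 197 in KO vehicle and 347 and 249 in WT vehicle (log2 1.36 ± 0.28, limma adjusted p = 0.0298). For both genes the WT ATL1222 arrays stood above the other 4. Tnfrsf18, a related receptor, had 7823 and 6331 in WT ATL1222, 3623 and 2921 in KO vehicle and 5124 and 3923 in WT vehicle (log2 1.11 ± 0.17, limma adjusted p = 0.00326). Tnfrsf4, another receptor of the family, had 4022 and 3159 in WT ATL1222, 2119.9 and 1534 in KO vehicle and 2530.3 and 1964 in WT vehicle (log2 0.98 ± 0.18, limma adjusted p = 0.0190). Nr4a2, related to Nr4a3, passed as well with the block (log2 0.94 ± 0.21 and limma adjusted p = 0.0537 without the block, limma adjusted p = 0.0154 with it). Against WT vehicle 1 rose in WT ATL1222, Tnfrsf9 (log2 1.34 ± 0.23, limma adjusted p = 0.0282), and 0 fell, where 0.211% of all genes passed. The list was evenly split in that comparison, with 9 positive and 8 negative values and a median of 0.03 beside -0.01 for all genes. With the block Nr4a3, Tnfrsf4 and Tnfrsf18 passed there too, where 0.724% of all genes did. Nr4a3 had log2 1.22 ± 0.28 and limma adjusted p = 0.128 without the block, and limma adjusted p = 0.00543 with it. In KO vehicle against WT vehicle 0 passed with or without the block (limma, 2 at an unadjusted p under 0.05), and 14 of 17 had negative log2 fold changes, with a median of -0.17 beside 0.00 for all genes. The list also holds co-stimulatory receptors that Tregs carry without stimulation.

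Further genes of the pathway, listed for co-receptors, kinases, phosphatases, calcium, Ras and actin steps, numbered 57, of which 46 were tested and 11 were not analysed here. Of these 1, Cd2, rose in WT ATL1222 against KO vehicle and 0 fell, where 0.999% of all genes passed, with a median of 0.05 beside -0.02 for all genes. Cd2, an adhesion receptor that lends co-stimulation, had signals of 7414 and 6038 in WT ATL1222, 4224 and 4064 in KO vehicle and 5616 and 4818 in WT vehicle (log2 0.69 ± 0.14, limma adjusted p = 0.0322). Its WT ATL1222 arrays were highest and its KO vehicle arrays lowest. With the block Tec, a kinase related to Txk, and Rasa1, which switches Ras off, passed as well, both lower in WT ATL1222. In that fit 2.42% of all genes passed, and 0.54% were called lower. Tec had 221 and 392 in WT ATL1222, 679 and 538 in KO vehicle and 433 and 460.3 in WT vehicle (2.00-fold lower in WT ATL1222 than in KO vehicle, limma adjusted p = 0.0958, or limma adjusted p = 0.0368 with the block). Rasa1 had 2651 and 3122 in WT ATL1222, 4398 and 4086 in KO vehicle and 3831 and 3449.7 in WT vehicle (log2 -0.56 ± 0.14, limma adjusted p = 0.0958, or limma adjusted p = 0.0154 with the block). Both genes were lowest in WT ATL1222 and highest in KO vehicle, without overlap between these groups. In the comparisons against WT vehicle 0 of the 46 passed with or without the block in limma. At an unadjusted p under 0.05 there were 7 of 46 in WT ATL1222 against KO vehicle, where 8.48% of all genes were. There were 4 of 46 in WT ATL1222 against WT vehicle, beside 5.03% of all genes. In KO vehicle against WT vehicle there was 1 of 46, beside 3.89%.

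Probe sets of 1 gene did not always point the same way. Of the 86 probe sets 70 lay above the limit, and 22 members had more than 1 of these. In WT ATL1222 against KO vehicle all probe sets of a member had 1 sign for 17 of the 22, in WT ATL1222 against WT vehicle for 13, and in KO vehicle against WT vehicle for 10. The 3 probe sets of Cblb gave log2 fold changes of 0.52 ± 0.15, 0.59 ± 0.26 and 0.40 ± 0.21 in WT ATL1222 against KO vehicle. The 4 of Sla gave 0.43 ± 0.14, 0.43 ± 0.25, 0.36 ± 0.17 and 0.04 ± 0.21. All were positive, and the last of Sla was close to 0. Ptpn22, Prkcq and Cd69 had 1 probe set each, so their values have no second measurement on the array. Tested separately, 0 of the 70 probe sets passed in any comparison without the block (limma), where 0.426% of all probe sets passed in WT ATL1222 against KO vehicle, 0.0693% in WT ATL1222 against WT vehicle and 0% in KO vehicle against WT vehicle.

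**Figure D4:**
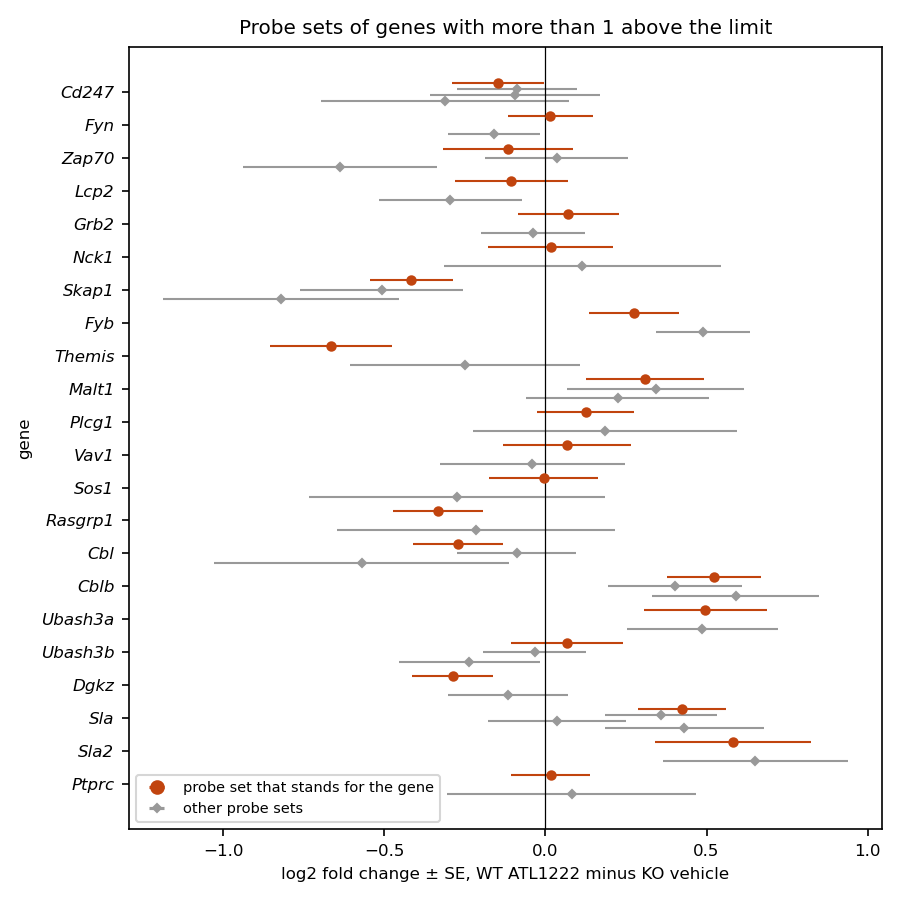
Log2 fold changes of every probe set above the limit with their SE, WT ATL1222 minus KO vehicle, for the 22 members with more than 1. Probe sets of Cblb, Ubash3a, Sla2 and Skap1 lie on 1 side of 0, while those of Zap70 and Ubash3b fall on both.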

How the data were processed

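The data are 6 arrays of sorted mouse Tregs. The deposited values are array signals, an intensity per probe set on a linear scale. Per the submitters' processing notes the authors used GCOS, whose version and algorithm the sources used here do not give. Per the labels' protocols, biotinylated RNA was made from total RNA with a 3' labelling kit. The authors' scaling was kept.

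Control probe sets (64) were removed. The platform's annotation gave 1 gene for 34945 probe sets and more than 1 for 932, which named none, and 9160 were absent from it. Symbols were updated through Entrez identifiers in a RefSeq table of GRCm38.p6. The analysis used log2(signal + 16), a scale on which fold changes of dim genes come out too small. Of 18193 genes, the lowest 40% by mean were left out, which left 10916. Groups were compared with limma 3.58.1 (R 4.3.3) in 1 fit of all 6 arrays with a variance trend, and Benjamini-Hochberg adjustment ran over all genes tested. The fit was tested on simulated data. The number of arrays limits the precision.

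Replicate numbers 1 and 2 recur in every group. Deviations of arrays from their group mean correlated across genes between same-numbered arrays. The r was 0.230 (KO vehicle and WT vehicle), 0.230 (WT ATL1222 and WT vehicle) and 0.147 (WT ATL1222 and KO vehicle). The number was therefore also fitted as a block, and the blocked fit is given where it changes a call. With 2 arrays a group, swapping the numbers within a group only turns the sign of its r. These values are therefore weak evidence of a pairing. Replicate 1 also had the lower median signal in every group, for example 74.7 against 87.7 in WT ATL1222. Whether the block reflects more than such differences between arrays was not tested. The labels do not say what the numbers share.

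The members and lists were chosen with earlier results of these data known. Values on every array were given for members that passed in the fit of genes with or without the block or in that of probe sets, for the 6 members with the smallest p in each comparison, and for set key genes. Others were added after their values were seen (Cd3d, Plcg1, Rasgrp1, Fyb, Cbl, Dgkz, Ptprc). The receptor gene itself is not reported here.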

Additional observations from a re-analysis of the deposited data

How the results depend on the processing

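Under 17 alternatives the count of members called stayed at 0 in KO vehicle against WT vehicle and in WT ATL1222 against WT vehicle. In WT ATL1222 against KO vehicle it was 0 in the main analysis, 4 with the replicate block and 1 (Ptpn22) with only the 4 arrays compared. Leaving out a WT vehicle array leaves the same 4 arrays to set the spread there, so those fits add no separate call. The cause of these differences was not tested. The blocked fit changed no other call among the members. Of 1122 values of the 22 named members under the alternatives, 52 had the other sign from the main value, and none of those passed. Over the alternatives the log2 fold change in WT ATL1222 against KO vehicle ran from 0.53 to 0.77 for Ptpn22, 0.41 to 0.64 for Cblb, 0.31 to 0.50 for Sla and -0.56 to -0.44 for Prkcq. Counts over all genes moved more: 3 in KO vehicle against WT vehicle (0 to 9 over the alternatives), 23 in WT ATL1222 against WT vehicle (0 to 79) and 109 in WT ATL1222 against KO vehicle (5 to 264), lowest without the variance trend and highest with the block. With probe sets averaged the counts were 0, 3 and 44 in that order, and with no filter the last of these comparisons had 70 and the one before it 14. In WT ATL1222 against WT vehicle the count was 36 with the lowest 60% left out, 35 with cyclic loess, 13 over every probe set and 44 with only the 4 arrays compared. Leaving out 1 array, where the lone array of a group is assumed to vary like the others, gave 42 to 133 in WT ATL1222 against KO vehicle, 5 to 39 in WT ATL1222 against WT vehicle and 3 to 7 in KO vehicle against WT vehicle. Signals near the limit, such as those of Grap2, have wide errors.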
